A study of Rattus norvegicus with 13 samples.

Results

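The genes described here are 6 regulators of complement and coagulation, C3, Cd55, Cd59, Serping1, F3 and Thbd, in rat kidney glomeruli, the capillary tufts that filter blood. They were taken as all probe sets of the array whose single gene symbol is one of these names. This gave 9 of 15923 probe sets, 8 by the platform symbol and 1 by a synonym, since the platform lists Cd59 as Cd59b. The array was a one-colour Affymetrix Rat 230A array, on which a probe set reports a transcript as a signal in intensity units. All 13 samples were glomeruli of untreated Lewis-Hsd rats aged 18 weeks on a regular diet. The sieved group (titled iron, n = 4) came from kidneys perfused with iron oxide particles, whose glomeruli were taken out by sieve and magnet to a stated purity above 99%, and its RNA was not amplified. The groups titled LCM 800 (LCM800, n = 5) and LCM 20 (LCM20, n = 4) came from frozen sections by laser capture microdissection, with 2 rounds of RNA amplification. The protocol names about 800 glomerular cross-sections for both of these groups, and only the titles set them apart. The labels also carry text on other material, since the description field speaks of embryos and the extraction text of anti-Thy1.1 animals, while the source field names untreated kidney glomeruli throughout. The design text says that the 2 methods were used on opposite kidneys of a rat, but the labels do not say which arrays share a rat, so p-values measure the spread between these samples. Perfusion, isolation and amplification all differed between sieved and microdissected samples, and their effects cannot be told apart.

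Complement is a cascade of plasma proteins that meets at C3, whose cleavage marks surfaces and leads to the membrane attack complex. Host cells are protected by inhibitors. Serping1 encodes C1 inhibitor, which blocks the starting proteases C1r and C1s, Cd55 encodes decay-accelerating factor, which takes apart the enzymes that cleave C3, and Cd59 encodes protectin, which stops assembly of the attack complex. Clotting is started by tissue factor, the product of F3, and is held back on endothelium by thrombomodulin, the product of Thbd, which turns thrombin into an activator of protein C. In the rat glomerulus these systems are known from anti-Thy1 nephritis, in which complement injures mesangial cells. In arrays of whole glomeruli, fewer cells of a type and less RNA per cell cannot be told apart.

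Serping1, F3, Cd59b and 1 of the 2 Cd55 probe sets were lower in both microdissected groups than in sieved glomeruli, by 2.19 to 5.37 times in mean signal, and for each of them every sieved sample was above every microdissected one. Ranges lay apart in this direction for 16.1% of all tested probe sets in LCM800 and 18.2% in LCM20. The other Cd55 probe set and the 2 tested Thbd probe sets did not pass the test in either comparison. A change is the mean of log2(signal + 65.3) in the first group minus that in the second, ± its SE, from 1 limma fit over all 13 arrays, and the adjusted p values are two-sided with Benjamini-Hochberg adjustment over all 11106 probe sets tested at a threshold of 0.05. Adding 65.3, the 20th percentile of all signals, understates the change of dim probe sets. The C3 probe set and 1 Thbd probe set fell in the lowest 30% of probe sets by mean level and were not tested, so 7 of the 9 probe sets were tested. Of these 7, 4 were lower and none higher in LCM800 than in sieved samples, where 20.1% of all tested probe sets were lower, 31.8% were higher and 51.9% passed in either direction. The same counts, 4 lower and none higher, were found in LCM20 against sieved, where 19.2% of all tested probe sets were lower, 26.2% were higher and 45.3% passed. Of the 4 that were lower, F3 and Cd55 1370406_a_at passed the filter only through the sieved samples. Their mean levels (log2) were 9.22 and 8.86 in sieved, 7.35 and 7.37 in LCM800 and 7.61 and 7.27 in LCM20. The cut was 7.62, so the count of 4 leans on the group in which these 2 are high. With no filter, 4 of 9 regulator probe sets passed in each comparison, beside 6946 (LCM800) and 5837 (LCM20) of all 15866 probe sets. When the filter was raised to 60%, 4 regulator probe sets were tested and 2 passed in each comparison, beside 55.2% and 51.4% of all 6346 probe sets tested. With 7 tested probe sets from 5 genes, some of them on the same gene, these counts describe the regulators and are not a test of them as a list. The 2 comparisons share the sieved arrays, so they are not independent of each other.

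The arrays did not all stand equally close to their groups. Sieved replicate 3 correlated with the other sieved arrays at r = 0.87 to 0.90 over the tested probe sets, against 0.96 to 0.98 among those 3. LCM800 replicates 1 to 3 correlated with replicates 4 and 5 at only 0.72 to 0.81, while replicates 4 and 5 correlated with the LCM20 arrays at 0.85 to 0.91. The gap between the 3′ and 5′ control probe sets of β-actin was 2.80 to 4.01 (log2) in LCM800 replicates 1 to 3, 1.78 and 1.71 in replicates 4 and 5, 1.33 to 2.29 in LCM20 and 0.53 to 0.57 in sieved arrays. The same gap of Gapdh did not split LCM800 this way, at 1.08 to 1.24 in replicates 1 to 3 and 2.02 and 0.68 in replicates 4 and 5, and ran from −0.22 to 3.06 in LCM20 and from 0.36 to 0.66 in sieved arrays. All 5 podocyte markers were above the added 65.3 in every array, and of the 7 endothelial markers 1 was below it in 1 sieved array. Podocyte markers moved both ways in LCM800, with 2 higher and 2 lower. Nphs1 went from a mean of 2301 in sieved to 4725 and Podxl from 7195 to 4126. Each marker was read through its probe set with the highest mean level. The other tested probe set of Nphs1 moved the opposite way in LCM800, by −0.65 (adjusted p = 0.0538 by limma). Those of Synpo and Wt1 moved by −0.46 (adjusted p = 0.084) and −1.44 (adjusted p = 0.000439), and the other Podxl probe sets also fell. Of the endothelial markers 4 were higher and none lower in each microdissected group. Over all tested probe sets 31.8% were higher in LCM800 and 26.2% in LCM20. The other tested Flt1 probe set did not pass, at −0.33 (adjusted p = 0.284 by limma) and −0.39 (adjusted p = 0.248), while that of Egfl7 rose by 1.18 and 1.09. The summed signal of 14 proximal tubule markers ran from 71004 to 138192 in sieved arrays, from 27613 to 59140 in LCM800 and from 22490 to 47074 in LCM20. Of these 14 markers, 13 were lower in LCM800 and 13 in LCM20, where 20.1% and 19.2% of all tested probe sets were lower. Pck1 was higher in LCM800, at a mean of 10957 in sieved, 23680 in LCM800 and 16620 in LCM20. It was the brightest of the 14 in both microdissected groups, so the sums understate the falls of the others. Sieved replicate 3 was the lowest sieved array for the proximal tubule sum. It was also the highest sieved array for the sums of 5 podocyte markers, at 36231 against 15198 to 19914, and of 7 endothelial markers, at 17181 against 5256 to 6684. The sum of 6 markers of parietal epithelium, which lines Bowman's capsule, ran from 4936 to 7869 in sieved, from 1571 to 2243 in LCM800 and from 1307 to 2288 in LCM20 arrays. Of these 6, 4 were lower in LCM800 and 5 in LCM20, while Krt18 rose in LCM800 by 0.58 (adjusted p = 0.0432 by limma). The sum of 10 loop, distal tubule and collecting duct markers was 20019 to 43478 in sieved, 13189 to 20489 in LCM800 and 4746 to 11962 in LCM20. Of these 10, 7 were lower and 1 higher in LCM800, and 8 were lower and none higher in LCM20. The higher one was Aqp2, at a mean of 4278 in sieved and 9584 in LCM800 (adjusted p = 0.0131 by limma). It was the brightest of the 10 in LCM800, so that sum rests largely on it. The part of these marker, control and array differences in the results below was not tested beyond leaving out arrays.

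**Figure D1:**
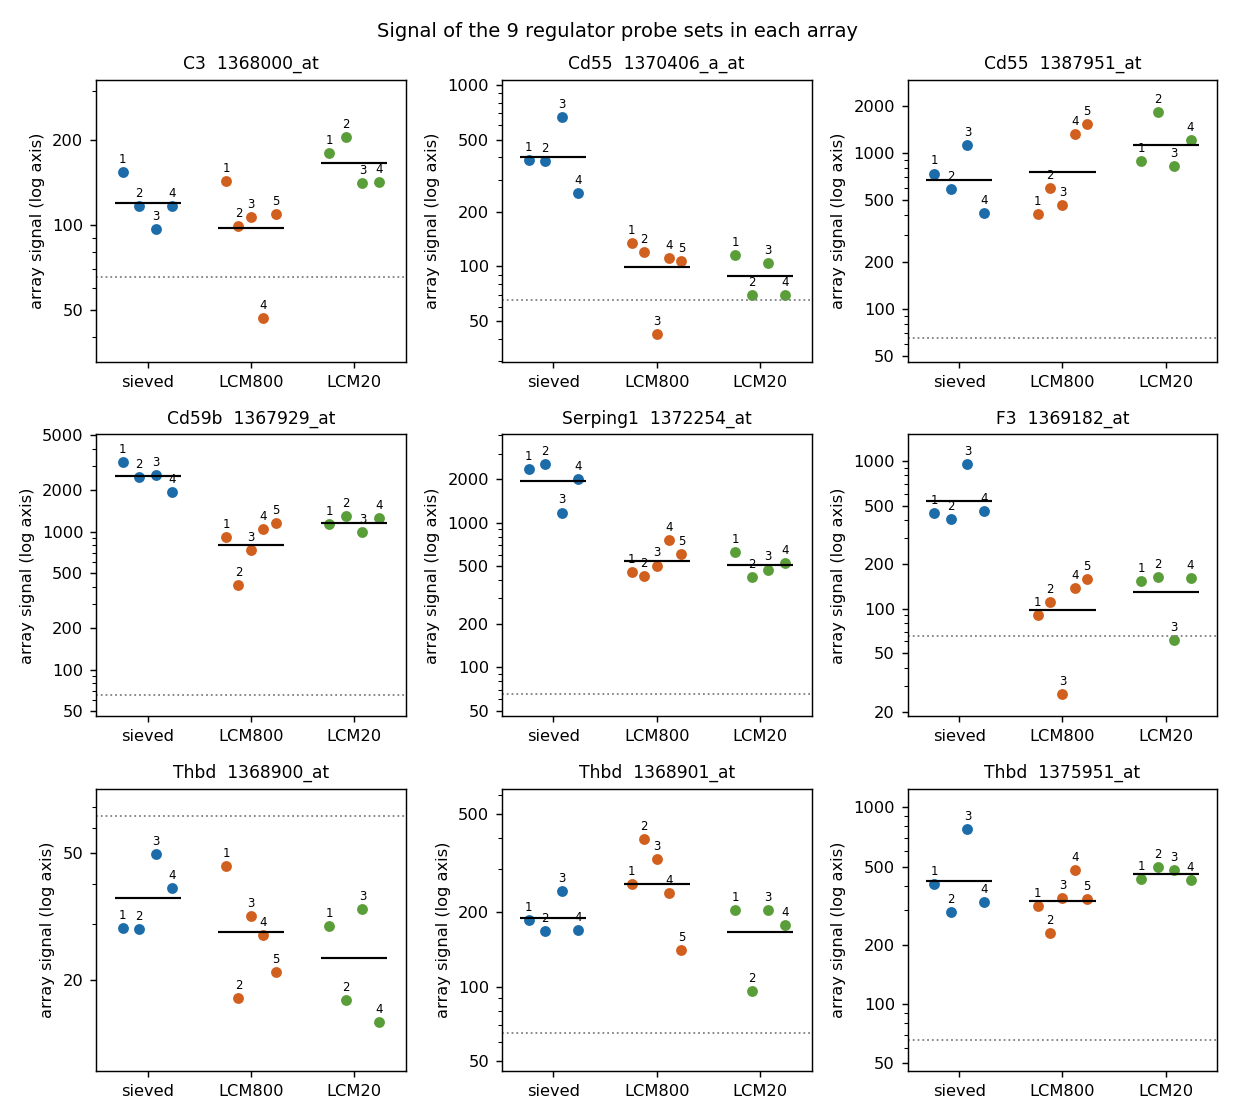
Array signal of the 9 probe sets (log axis) in each sieved, LCM800 and LCM20 sample, numbered by replicate; black bars are group means taken on the log2(signal + 65.3) scale, and the dotted line marks 65.3. For Serping1, F3, Cd59b and Cd55 1370406_a_at all sieved points lie above all microdissected points, and in the other 5 panels the groups overlap.

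C3 itself gave low signals in all 3 groups. The C3 probe set read 154, 117, 96.6 and 117 in sieved replicates 1 to 4, and 143, 99.1, 107, 46.6 and 109.55 in LCM800 replicates 1 to 5. In LCM20 replicates 1 to 4 it read 179.9, 205, 141 and 142. The ranges of the 3 groups overlapped, 2 of the 4 LCM20 samples were the highest of all, and only LCM800 replicate 4 was below 65.3. The mean level of the probe set was 7.56 (log2), just under the 7.62 that a probe set needed to be tested. In the fit with no filter its changes were −0.19 (95% interval −0.61 to 0.24; adjusted p = 0.468 by limma) in LCM800 and 0.32 (−0.14 to 0.77; adjusted p = 0.259) in LCM20 against sieved, and 0.50 (0.07 to 0.93; adjusted p = 0.269) in LCM20 against LCM800. None of them passed after adjustment.

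Serping1, the inhibitor that acts at the first step of the classical and lectin pathways, was the regulator with the smallest p value in both comparisons with sieved samples. Its signals were 2354, 2551, 1174 and 2003 in sieved replicates 1 to 4. They were 455, 425, 505, 760.4 and 609 in LCM800 replicates 1 to 5, and 621, 422, 474 and 527 in LCM20 replicates 1 to 4. The lowest sieved sample, replicate 3, was still above the highest microdissected sample, and the LCM800 and LCM20 samples lay in the same range. The mean signal was 2020.5 ± 608 (SD, n = 4) in sieved samples, 551 ± 136 (SD, n = 5) in LCM800 and 511 ± 85.2 (SD, n = 4) in LCM20. Serping1 fell by 1.73 ± 0.24 in LCM800 (adjusted p = 3.24e-05) and fell by 1.81 ± 0.25 in LCM20 (adjusted p = 4.73e-05). Without sieved replicate 3 the changes were −1.96 (adjusted p = 6.56e-06) and −2.04 (adjusted p = 8.15e-06).

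Cd55 was measured by 2 probe sets that the platform table ties to the same sequence record, and they gave different pictures of the gene. The first, 1370406_a_at, carries the suffix that the maker uses for probe sets shared by several transcripts of a gene. It read 384, 380.2, 669 and 254 in sieved replicates 1 to 4, and 134, 119.9, 112, 108 and 42.5 in LCM800 replicates 1, 2, 4, 5 and 3. In LCM20 replicates 1 to 4 it read 116, 69.4, 105 and 69.6. All 9 microdissected samples were below all sieved samples, at 42.5 to 134 against 254 to 669, and LCM800 replicate 3 was below 65.3. The probe set fell by 1.50 ± 0.25 in LCM800 (adjusted p = 0.000182) and fell by 1.60 ± 0.27 in LCM20 (adjusted p = 0.000211). Without sieved replicate 3, its highest sample, the changes were −1.28 (adjusted p = 0.000820) and −1.38 (adjusted p = 0.000740). The size of the fall rests on the value added to these dim signals: it was −0.88 and −0.93 with 4 times 65.3 and −2.05 and −2.18 with nothing added, and it passed in each case.

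The second Cd55 probe set, 1387951_at, read 740.1, 589, 1129 and 412 in sieved replicates 1 to 4. It read 406, 602, 466, 1327 and 1545 in LCM800 replicates 1 to 5, and 888, 1849.7, 829 and 1210.2 in LCM20 replicates 1 to 4. The sieved and microdissected ranges overlapped widely, and LCM800 split, with replicates 1 to 3 at 406 to 602 and replicates 4 and 5 above all sieved samples. Its change was 0.15 ± 0.38 in LCM800 (95% interval −0.66 to 0.96; adjusted p = 0.757) and 0.70 ± 0.40 in LCM20 (−0.15 to 1.55; adjusted p = 0.165). The LCM800 value was 1.02 and passed when only replicates 4 and 5 were kept (adjusted p = 0.0353, in a fit that called 46.9% of all probe sets). It was −0.43 when only replicates 1 to 3 were kept (adjusted p = 0.26, in a fit that called 55.2%). This split was chosen after the values were seen, so its p values are not a test of it. With array weights the LCM20 value, 0.73, passed (adjusted p = 0.0495, in a fit that called 57.8%), and the LCM800 value was −0.10 (adjusted p = 0.758).

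Within each array the level of 1387951_at minus that of 1370406_a_at shows how far the probe sets of Cd55 part. This difference was 0.55 to 0.84 (log2) in the 4 sieved arrays, with a mean of 0.67 ± 0.13 (SD). It was 1.24, 1.85, 2.30, 2.97 and 3.22 in LCM800 replicates 1 to 5, and 2.39, 3.83, 2.39 and 3.24 in LCM20 replicates 1 to 4. Every microdissected array was above every sieved array. The mean was higher by 1.65 in LCM800 (exact two-sided permutation p = 0.0159, n = 5 and 4) and by 2.29 in LCM20 (exact permutation p = 0.0286, the smallest that 4 against 4 arrays can give). Adjusted over the 6 such tests made for Cd55 and Thbd, both exact p values were 0.0857, so neither passed. The tests were chosen after the values were seen. The LCM800 and LCM20 differences were 1.01 and 1.50 with 4 times 65.3 added, and 2.20 and 2.94 with nothing added. The groups also differed in the β-actin difference between the 3′ and 5′ ends given above. Within LCM800 that β-actin difference was larger in replicates 1 to 3 (2.80 to 4.01) than in replicates 4 and 5 (1.78 and 1.71). The Cd55 difference was smaller in replicates 1 to 3 than in 4 and 5. A link between the 2 was not tested, and where each Cd55 probe set lies along the transcript was not analysed here.

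**Figure D2:**
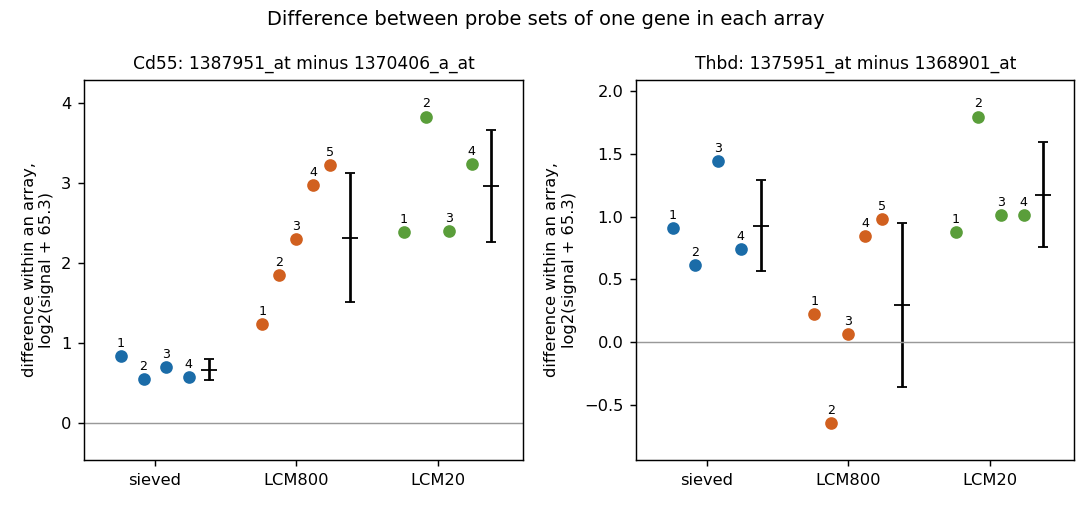
Difference in log2(signal + 65.3) between probe sets of one gene within each array, for Cd55 (left) and Thbd (right); numbers are replicates, and black bars are group means ± SD. For Cd55 the sieved arrays lie between 0.55 and 0.84 and all microdissected arrays lie above them, while for Thbd the groups overlap.

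Cd59b, which encodes the inhibitor of the membrane attack complex, was lower in microdissected glomeruli but stayed at a signal of 409 or more in every array. It read 3185, 2512, 2597 and 1948 in sieved replicates 1 to 4. It read 913, 409, 733, 1038 and 1159.8 in LCM800 replicates 1 to 5, and 1146, 1296, 996 and 1248 in LCM20 replicates 1 to 4. The sieved samples were all above the others, and LCM800 was the more scattered of the microdissected groups, at a mean of 850.5 ± 293 (SD, n = 5) against 1172 ± 133 (SD, n = 4) in LCM20. Cd59b fell by 1.57 ± 0.26 in LCM800 (adjusted p = 0.000145) and fell by 1.07 ± 0.27 in LCM20 (adjusted p = 0.00505). Its values hardly moved without sieved replicate 3, at −1.56 and −1.06 (adjusted p = 0.000477 and 0.0106), in contrast to Serping1 and Cd55.

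F3, the gene of tissue factor, was lower in both microdissected groups. Its signals were 445, 407, 949.9 and 458 in sieved replicates 1 to 4. In LCM800 replicates 1 to 5 they were 90.5, 111, 26.6, 139 and 158, and in LCM20 replicates 1 to 4 they were 154, 165, 61.3 and 161. No microdissected sample reached the lowest sieved sample, 407, and the third replicate of each microdissected group was below 65.3. F3 fell by 1.87 ± 0.30 in LCM800 (adjusted p = 0.000106) and fell by 1.62 ± 0.31 in LCM20 (adjusted p = 0.000707). Sieved replicate 3 was far above the other sieved samples, which lay between 407 and 458, and without it the changes were −1.62 (adjusted p = 0.000449) and −1.36 (adjusted p = 0.00257). As for Cd55, the size depended on the added value, at −1.14 and −1.02 with 4 times 65.3 and −2.56 and −2.07 with nothing added, all past the test. In that array both tested Thbd and both Cd55 probe sets also had their highest sieved signal, and C3 and Serping1 their lowest.

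Thbd, the gene of thrombomodulin, was measured by 3 probe sets, and none of them separated the groups. The probe set 1368900_at was below 65.3 in all 13 arrays, at 14.8 to 49.8, and was not tested. With no filter its changes against sieved were −0.12 in LCM800 (adjusted p = 0.428) and −0.20 in LCM20 (adjusted p = 0.236). The probe set 1375951_at read 407, 293, 778 and 329 in sieved replicates 1 to 4, and 316, 229, 347, 483 and 343 in LCM800 replicates 1 to 5. In LCM20 it read 431, 497, 481 and 427, the narrowest spread of any group for this probe set. Its change was −0.28 ± 0.24 in LCM800 (95% interval −0.80 to 0.23; adjusted p = 0.343) and 0.10 ± 0.26 in LCM20 (−0.44 to 0.65; adjusted p = 0.764). Both intervals lie above the changes of the 4 probe sets that passed, which ran from −1.87 to −1.07. Without sieved replicate 3 the changes were −0.02 (adjusted p = 0.951) and 0.37 (adjusted p = 0.185).

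The remaining Thbd probe set, 1368901_at, read 186, 168, 245 and 170.4 in sieved replicates 1 to 4. It read 261, 396, 329, 240.1 and 141 in LCM800 replicates 1 to 5, and 204, 96.2, 205 and 179 in LCM20 replicates 1 to 4. LCM800 replicates 1 to 3 were above all sieved samples and replicate 4 was just below the highest of them. The change was 0.35 ± 0.24 in LCM800 (95% interval −0.16 to 0.87; adjusted p = 0.23) and −0.14 ± 0.25 in LCM20 (−0.68 to 0.40; adjusted p = 0.665). The LCM800 value passed with array weights, at 0.59 (adjusted p = 0.00689, in a fit that called 66.7% of all probe sets). With only LCM800 replicates 1 to 3 kept it passed at 0.61 (adjusted p = 0.0417, in a fit that called 55.2%). With only replicates 4 and 5 kept it was −0.03 (adjusted p = 0.941, in a fit that called 46.9%). This split was chosen after the values were seen, so its p values are not a test of it. The difference between 1375951_at and 1368901_at within arrays was 0.93 ± 0.36 (SD, n = 4) in sieved, 0.29 ± 0.66 (SD, n = 5) in LCM800 and 1.18 ± 0.42 (SD, n = 4) in LCM20 samples. The adjusted exact permutation p values of its 3 comparisons were 0.19, 0.457 and 0.111, for LCM800 against sieved, LCM20 against sieved and LCM20 against LCM800.

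**Figure D3:**
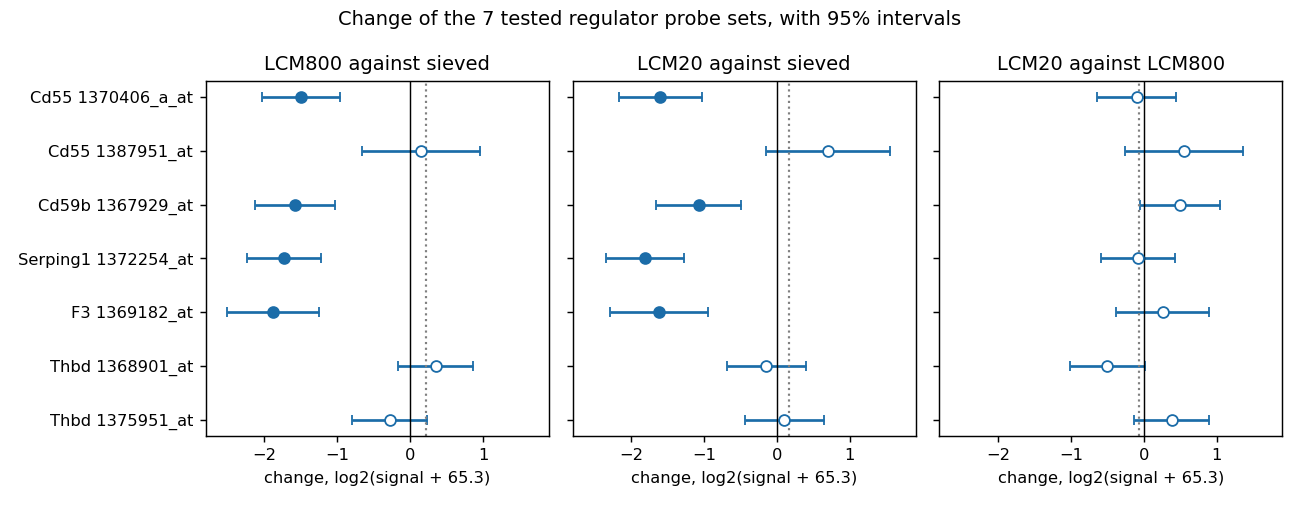
Change of the 7 tested probe sets in log2(signal + 65.3), with 95% intervals, in the 3 comparisons; filled points passed at an adjusted p under 0.05, and the dotted line is the median change of all tested probe sets. Serping1, F3, Cd59b and Cd55 1370406_a_at lie at −1.07 or below in both comparisons with sieved samples, and no point is filled in LCM20 against LCM800.

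Between the microdissected groups none of the 7 tested probe sets passed, and none had an unadjusted p under 0.05 by limma, beside 0.153% of all tested probe sets that passed and 17.6% with an unadjusted p under 0.05. The change in LCM20 against LCM800 was −0.08 for Serping1 (95% interval −0.59 to 0.43; adjusted p = 0.885), −0.10 for Cd55 1370406_a_at (−0.64 to 0.44; adjusted p = 0.866) and 0.26 for F3 (−0.38 to 0.89; adjusted p = 0.681). These intervals leave room for differences of up to 0.89, so they do not show that the groups are alike. The change was 0.50 for Cd59b (−0.05 to 1.05; adjusted p = 0.325), 0.55 for Cd55 1387951_at (−0.26 to 1.36; adjusted p = 0.461), 0.38 for Thbd 1375951_at (−0.13 to 0.90; adjusted p = 0.416) and −0.50 for Thbd 1368901_at (−1.01 to 0.01; adjusted p = 0.296). The result depended on which LCM800 arrays were used. With only LCM800 replicates 1 to 3 kept, a choice made after the values were seen, Cd55 1387951_at passed at 1.13 (adjusted p = 0.0188), Cd59b at 0.78 (adjusted p = 0.0378) and Thbd 1368901_at at −0.75 (adjusted p = 0.0334), in a fit that called 23.4% of all probe sets. With only replicates 4 and 5 kept, none of the regulators passed, and 0.207% of all probe sets did.

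The genes whose pattern over the 13 arrays was most like that of each regulator were found by the root mean square difference of centred log2 values among 8042 other genes, which is 0 for an identical pattern. For Serping1 they were Gpr137b, Ndufs1, a subunit of respiratory complex I, and Aldh4a1, an enzyme of proline breakdown, at 0.18 to 0.20, against a median of 1.05 over all genes compared. For F3 they were the carboxypeptidase gene Cpd, the ubiquitin ligase gene Nedd4 and Rab18, at 0.32 to 0.35. For Cd59b they were Gtf3c3, the tRNA ligase gene Eprs1 and the adenosine kinase gene Adk, at 0.26 to 0.27. The Cd55 probe sets had different nearest genes, with Sem1, Ugt8 and Gnai1 at 0.23 to 0.27 for 1370406_a_at, and Sec63, Mbd2 and Tmx3 at 0.20 to 0.23 for 1387951_at. For Thbd they were Wdpcp, Trappc9 and Ehd4 at 0.19 to 0.20 for 1368901_at and Flrt2, Rab5c and Ywhag at 0.18 to 0.20 for 1375951_at.

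The other genes of complement and coagulation moved in both directions. Of 79 listed genes beside the 6 regulators, 56 had a probe set with a single symbol and 35 were tested, each through its probe set with the highest mean level. Of these 35, 17 were higher and 6 lower in LCM800, where 31.8% of all tested probe sets were higher and 20.1% lower, and their median change was 0.62 beside 0.22 over all. In LCM20, 14 were higher and 6 lower, beside 26.2% and 19.2%, with a median of 0.39 beside 0.17, and none passed in LCM20 against LCM800. Among the other complement inhibitors, Clu, the gene of clusterin, fell by 1.49 ± 0.26 in LCM800 (adjusted p = 0.00024) and fell by 1.89 ± 0.28 in LCM20 (adjusted p = 6.91e-05), while Cd46, the gene of membrane cofactor protein, rose by 0.92 ± 0.22 (adjusted p = 0.00267) and 0.96 ± 0.23 (adjusted p = 0.00349). C1r, whose product C1 inhibitor blocks, rose by 1.22 ± 0.27 (adjusted p = 0.00173) and 1.15 ± 0.29 (adjusted p = 0.00456), and the lectin pathway protease gene Masp1 rose by 1.86 ± 0.20 (adjusted p = 2.97e-06) and 1.85 ± 0.21 (adjusted p = 7.16e-06). Properdin, the product of Cfp, rose by 1.10 in LCM800 (adjusted p = 0.00122) and by 0.66 in LCM20 (adjusted p = 0.0413), a call that ended without any one sieved array, the highest adjusted p being 0.101 without sieved replicate 3, without LCM20 replicate 1 (adjusted p = 0.0784) or 3 (adjusted p = 0.125), with quantile normalization (adjusted p = 0.0628), with 4 times the pseudocount (adjusted p = 0.0526) and with the replicate block (adjusted p = 0.0501). In LCM800 C8b and the receptor gene C5ar1 rose by 0.61 (adjusted p = 0.0148) and 0.69 (adjusted p = 0.0153), C8b not with only LCM800 replicates 1 to 3 kept (adjusted p = 0.057), and C5ar1 not without sieved replicate 4 (adjusted p = 0.0711) or with only LCM800 replicates 4 and 5 kept (adjusted p = 0.139). Markers of blood cells also moved. Of 9 leukocyte markers 6 were higher and 1 lower in LCM800 and 4 higher and 1 lower in LCM20. Over all tested probe sets 31.8% and 26.2% were higher. Their summed signal overlapped, at 9358 to 13471 in sieved, 9855 to 11563 in LCM800 and 7600 to 14877 in LCM20 arrays. The lower marker was Cd74 in both, at a mean of 7491 in sieved, 2276 in LCM800 and 1598 in LCM20. It was the brightest of the 9 in sieved samples, so these sums rest largely on it. The sum of 3 platelet markers was 514 to 742 in sieved arrays against 872 to 1254 in LCM800 and 872 to 1121 in LCM20. Of these 3, 2 were higher in LCM800 and only Pf4 in LCM20. There Ppbp and Itga2b did not pass, at 0.18 (adjusted p = 0.525 by limma) and −0.22 (adjusted p = 0.473). The part of these cells in the rises of Cfp, C5ar1 and F13a1 was not tested.

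On the clotting side, F5 fell by 1.001 ± 0.20 in LCM800 (adjusted p = 0.000797) and fell by 1.34 ± 0.21 in LCM20 (adjusted p = 0.000147), and Vwf fell by 1.31 (adjusted p = 0.00356) and fell by 0.996 (adjusted p = 0.0268). The LCM20 call of Vwf ended without sieved replicate 1, 2 or 4 or LCM20 replicate 2 or 4 (adjusted p of 0.0592 to 0.0921). F13a1 rose by 0.93 (adjusted p = 0.00566) and 0.72 (adjusted p = 0.0355), the latter not without sieved replicate 4, at 0.45 (adjusted p = 0.138), or LCM20 replicate 1 (adjusted p = 0.0979) or 3 (adjusted p = 0.0968), nor with array weights (adjusted p = 0.0877) or only the 2 groups compared (adjusted p = 0.0572). Of the 5 tested anticoagulant genes other than Thbd, 4 were higher in LCM800 and 5 in LCM20, each counted through its brighter probe set. Over all tested probe sets 31.8% were higher in LCM800 and 26.2% in LCM20. None of the 5 was lower by this count, but the dimmer Tfpi probe set fell in both, as given below. The filter had left out Proc, the gene of protein C, which was picked out after its values were seen. Its mean signal was 417 ± 94.9 (SD, n = 4) in sieved, 28.2 ± 15.3 (SD, n = 5) in LCM800 and 18.8 ± 7.46 (SD, n = 4) in LCM20 samples, and with no filter it fell by 2.36 (adjusted p = 3.52e-07) and fell by 2.50 (adjusted p = 5.23e-07). With no filter, 21 of the 56 genes were higher and 8 lower in LCM800, beside 26.2% and 17.6% of all probe sets, and 19 were higher and 8 lower in LCM20, beside 19.8% and 17%. Of the 21 genes that the filter had left out, 5 were higher and 2 lower in each comparison. Proc was thus on the less common side, while Tfpi2, another anticoagulant gene, rose by 1.02 (adjusted p = 0.00229 by limma) and 0.80 (adjusted p = 0.0168). Pros1, the gene of the protein C cofactor protein S, rose by 1.50 ± 0.25 in LCM800 (adjusted p = 0.00018) and by 2.34 ± 0.27 in LCM20 (adjusted p = 8.69e-06). Anxa5 rose by 1.36 in LCM800 (adjusted p = 0.00695). Tfpi, the gene of the inhibitor of tissue factor, rose in LCM20 by 1.99 ± 0.52 (adjusted p = 0.00632) through its brighter probe set, while the other moved the opposite way, by −1.22 ± 0.24 (adjusted p = 0.000669). In LCM800 the brighter one did not pass, at 0.61 (adjusted p = 0.312), and the other moved by −1.29 ± 0.22 (adjusted p = 0.000226). The thrombin receptor gene F2r rose by 2.38 ± 0.24 (adjusted p = 2.16e-06) and 2.24 ± 0.25 (adjusted p = 7.78e-06), and F2rl1 by 0.66 in both (adjusted p = 0.0098 and 0.0148). In fibrinolysis, Plau, the gene of urokinase, fell by 3.17 ± 0.37 (adjusted p = 7.28e-06) and fell by 3.25 ± 0.39 (adjusted p = 1.32e-05), and Serpinf2, the gene of the plasmin inhibitor, fell by 2.66 ± 0.33 (adjusted p = 1.15e-05) and fell by 3.45 ± 0.35 (adjusted p = 2.69e-06). Cpb2 rose by 1.26 in LCM800 (adjusted p = 0.0029, or 0.11 with only LCM800 replicates 4 and 5 kept) and S100a10 by 0.90 in LCM20 (adjusted p = 0.0197), the latter not without sieved replicate 1, 2 or 4 or LCM20 replicate 2 (adjusted p of 0.0565 to 0.0701).

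**Figure D4:**
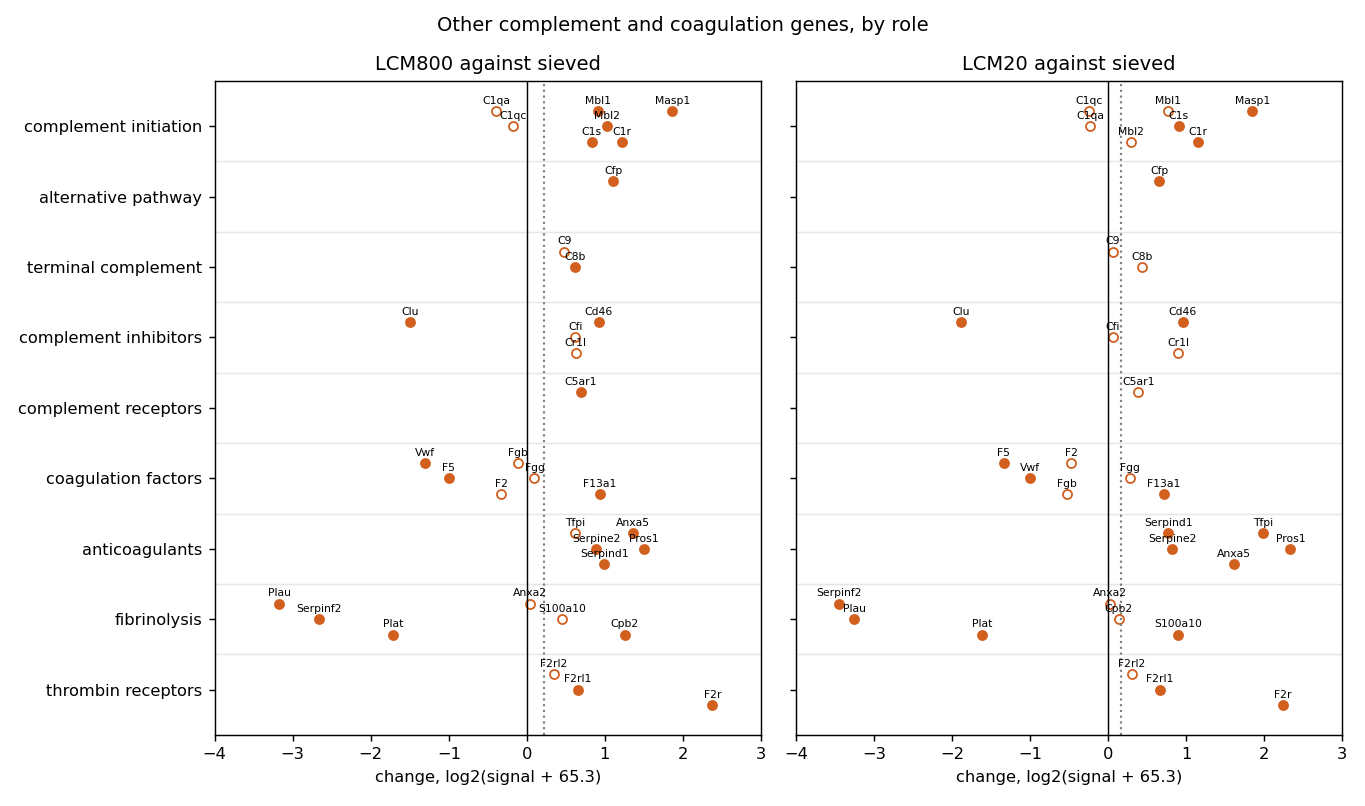
Change in log2(signal + 65.3) of the 35 tested complement and coagulation genes other than the 6 regulators, by role, in LCM800 (left) and LCM20 (right) against sieved; filled points passed at an adjusted p under 0.05, and the dotted line is the median over all tested probe sets. The falls lie in fibrinolysis, coagulation factors and Clu, while 17 genes in LCM800 and 14 in LCM20 are higher.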

How the data were processed

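The authors deposited linear array signals in intensity units for 13 samples, and the submitters' processing notes name MAS5 as the tool. Trimmed of 2% at each end, the array means were all 500.1, and the arrays were not scaled again. Tests used log2(signal + 65.3). After removal of 57 controls, probe sets in the lowest 30% by mean log2 were dropped, which left 11106. Symbols came from the platform table and a RefSeq gene table (assembly GRCr8, names only): 12783 probe sets had 1 symbol, 312 several and 2771 none. The fit was made with limma 3.58.1 (R 4.3.3), with 3 groups, an intensity trend and no covariate. It was tested on simulated data with few changed probe sets and independent noise. Those settings differ from these data, where many probe sets passed and arrays stood apart within groups. Array medians lay between 236 and 321, and precision is limited by how many arrays there are. All probe sets of the 6 genes were reported, and in each pathway list the 2 largest rises and falls past the test were named, with 1 probe set per gene. The regulators and lists were chosen with earlier results of these data known. Other normalizations, pseudocounts, filters, array weights, a replicate block and left-out arrays were tried. The splits of LCM800 and the within-array differences were added after the data were seen.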

Additional observations from a re-analysis of the deposited data

Results flagged for a closer look

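In 3 of 27 groups of values, 1 sample lay far from the rest by Dixon's criterion, and chance gives about 1 in 20. F3 was at 949.9 in sieved replicate 3, against 407 to 458 in the other sieved samples. F3 was at 61.3 in LCM20 replicate 3, against 154 to 165 in the other LCM20 samples. Cd55 1370406_a_at was at 42.5 in LCM800 replicate 3, against 108 to 134 in the other LCM800 samples.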

How the results depend on the processing

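The falls of Serping1, F3, Cd59b and Cd55 1370406_a_at in both comparisons with sieved samples kept their direction and passed under every alternative in which they were tested. Over all 21 changes of tested regulators, 402 of 409 values under alternatives stayed on their side of the threshold, 7 newly passed and none that passed turned its sign. Among changes that passed in neither setting the sign turned in 17 values, for 8 changes, 6 of these values being Cd55 1387951_at in LCM800 against sieved. When the filter was raised to 60% only 4 regulator probe sets remained, and 2 passed in each comparison with sieved, beside 3503 (LCM800) and 3260 (LCM20) of all 6346 probe sets then tested. Leaving out 1 array at a time gave 4 regulator calls in each of these comparisons, beside 4932 to 5730 and 4115 to 4965 of all probe sets. In LCM20 against LCM800 the count over all probe sets was 17, and it was 10 with no pseudocount, 10 with no filter, 859 with array weights, 0 with only the 2 groups compared and 0 to 504 with 1 array left out, the highest being 504 without LCM800 replicate 4 and 210 without replicate 5. With only LCM800 replicates 1 to 3 kept it was 2594, and 3 regulator probe sets passed. The cause was not tested. Of 614 values of the pathway genes named, 27 no longer passed and none reversed. Setting array medians equal moved the median change over all probe sets in LCM800 against sieved from 0.22 to 0.11, and the 4 falls still passed. Whether replicate numbers mark a shared rat is not known from the labels, and deviations of same-numbered arrays correlated at −0.24 to 0.23, over 0.1 in 3 of 12 pairs, so the numbers were not used as pairs. With the replicate block 0 probe sets passed in LCM20 against LCM800, and 4 regulator probe sets passed in each comparison with sieved. All signals are MAS5 summaries without detection calls, so levels near 65.3 are uncertain.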
